A study of Mus musculus with 4 samples.

Results

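Mgll encodes monoacylglycerol lipase (MAGL), and its transcript was followed across the cell types of the mouse hippocampus in 4 single-nucleus RNA libraries. It was 1 gene of the 20211 listed in every library, and it was chosen as the gene named in the study's genotypes, not for a measured value. In GENCODE M21 (GRCm38, the assembly also called mm10) Mgll is the protein-coding gene ENSMUSG00000033174.17 on chromosome 6, from 88724412 to 88828360 on the plus strand, with 10 annotated transcripts. Each library came from hippocampal tissue of 1 genotype. The WT library is labelled wild type, and tKO, aKO and nKO are labelled as total or global, astrocyte-specific and neuron-specific knockouts of MAGL. Nothing in the sources used here gives the number of animals, their age and sex, the strain, the driver of the cell-type-specific deletions or the deleted part of the gene. Since UMIs can lie outside a deleted part, the genotypes are taken from the labels alone and not from the Mgll level.

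MAGL hydrolyses 2-arachidonoylglycerol (2-AG), an endocannabinoid made on demand by postsynaptic neurons that travels back to CB1 receptors on presynaptic terminals and lowers transmitter release. In the hippocampus the enzyme is known from presynaptic terminals and from astrocytes, and CB1 is abundant on the terminals of cholecystokinin (CCK) basket cells. The arachidonic acid that MAGL frees is also a source of prostaglandins in the brain.

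The libraries differed in ways that touch the values below. The WT, tKO, aKO and nKO libraries gave 8935, 23929, 10000 and 8682 kept nuclei, with median depths of 8787, 4987, 7269 and 8449 UMIs per nucleus, so tKO was the shallowest. Barcodes called doublets and removed made up 22.6% of tKO and 1.73% to 6.13% of the other libraries. The tKO library also gave 743 of the 776 nuclei of the medium spiny neuron cluster. It gave 786 of the 872 nuclei of unnamed cluster 22, which has Ebf1 among its leading genes. Each pair of libraries shared between 108 and 466 barcodes (1.21% to 4.63% of the smaller library). The number expected between unrelated libraries was not worked out, so nothing is drawn from these counts. A UMI of Xist, the RNA of the inactive X chromosome, was found in 0.121% of tKO nuclei and in 45.5% to 50.9% of nuclei of the other libraries. The other libraries also held male nuclei (Y-linked UMIs and no Xist UMI, 41.7% to 46.7%), and with male nuclei alone the log2 ratio of Mgll in excitatory neurons, tKO over WT, was -0.44, against -0.37 with all nuclei. Glial nuclei were unevenly spread: oligodendrocytes made up 4.41%, 5.92%, 0.520% and 0.829% of WT, tKO, aKO and nKO nuclei, and astrocytes 1.02%, 0.339%, 0.240% and 0.553%. With 1 library per genotype no difference has a replicate check. All intervals are exact 95% intervals that cover counting error only, and nuclei of a library are not replicates.

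Nuclei were given a class by gates on marker genes. An astrocyte, for example, needed at least 3 astrocyte markers, and the score of any other lineage at most 50% of the astrocyte score. The score was the share of a list's markers detected, in which markers found in fewer nuclei weighed more. A class name means that nuclei carry its markers. There were 14 classes ranked by the mean Mgll level over the libraries (in CPM, the UMIs of Mgll scaled to 1000000 UMIs of the class). They were picked by name with the values known and by no fixed number of nuclei or UMIs, and 9 other gated classes were left out. Of these, thalamic, medium spiny and immature neurons held 107, 68 and 55 Mgll UMIs, more than the 54 of microglia, and the others were Cajal-Retzius, endothelial, mural, meningeal or fibroblast-like, choroid plexus and ependymal cells. Astrocytes stood first with a mean of 415 CPM, followed by Lamp5 interneurons with 246, oligodendrocyte precursors with 168 and CCK-type interneurons with 164. Microglia (148), CA2/CA3 pyramidal neurons (145), dentate granule neurons (126), subicular or cortical excitatory neurons (112) and oligodendrocytes (108) came next. Parvalbumin (93.3), somatostatin (87.6) and Vip (81.1) interneurons, CA1 pyramidal neurons (63.4) and mossy cells (32.3 CPM) closed the order. Interneuron subtypes were thus found near the top and near the bottom of the same ranking.

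No pair of neighbours in this order was separated in all 4 libraries. Astrocytes lay above Lamp5 interneurons in 4 of 4 libraries, with the interval of the ratio above 0 on the log2 scale in 3. Lamp5 interneurons lay above oligodendrocyte precursors in 4, with the interval above 0 in 2. From oligodendrocyte precursors through CCK-type interneurons and microglia to CA2/CA3 neurons, no interval between neighbours excluded 0 in any library, and the same held from parvalbumin through somatostatin to Vip interneurons. Oligodendrocytes lay above parvalbumin interneurons in WT and below them in tKO, in both with an interval that excluded 0. CA2/CA3 neurons lay above dentate granule neurons in 4 libraries, with the interval above 0 in 3, and CA1 neurons lay above mossy cells in 4, with the interval above 0 in 2.

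**Figure D1:**
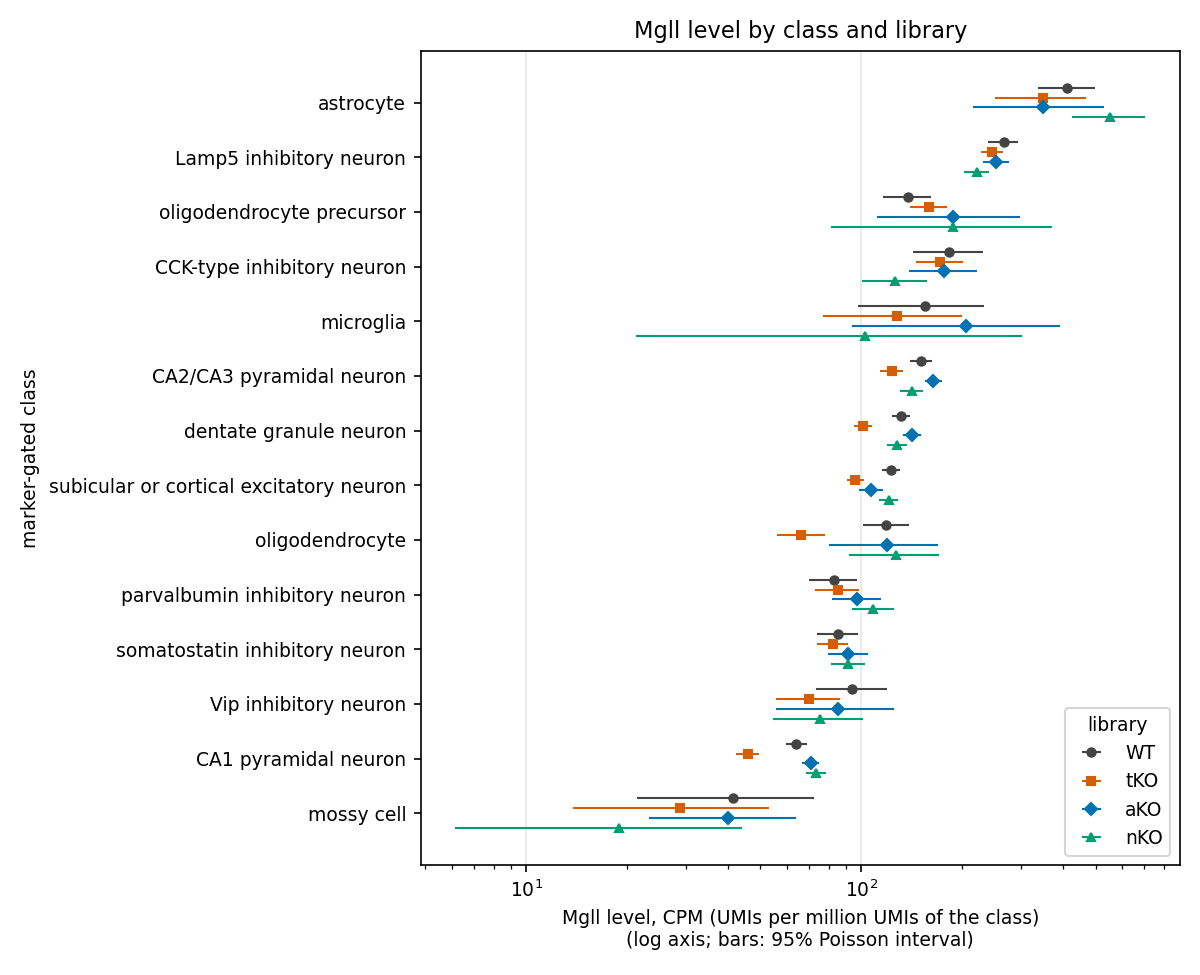
Mgll level (x axis, CPM of the class, log axis) in 14 marker-gated classes (y axis, ordered by the mean of the libraries), 1 point per library with its 95% Poisson interval. Astrocytes (347 to 552) and Lamp5 interneurons (221 to 266) sit at the high end and mossy cells (18.9 to 41.4) at the low end.

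Among interneurons Mgll was highest in the Lamp5 class, which holds neurogliaform and ivy-like cells that release GABA diffusely. The Lamp5 level was 266 CPM in WT (239 to 294, from 149 nuclei), 246 in tKO, 252 in aKO and 221 in nKO. Somatostatin interneurons, which target distal dendrites, held 85.0, 82.2, 91.4 and 91.6 CPM in the same order. The groups did not overlap: the lowest Lamp5 library lay above the highest somatostatin library. The Lamp5 level was 3.13-fold that of somatostatin interneurons in WT, 2.99-fold in tKO, 2.75-fold in aKO and 2.42-fold in nKO, with the interval above 1 in each library. Against Vip interneurons, which mainly inhibit other interneurons, the Lamp5 ratio was 2.83, 3.53, 2.95 and 2.94.

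Parvalbumin interneurons, the perisomatic fast-spiking cells, held 82.7 CPM in WT, 85.1 in tKO, 97.0 in aKO and 108 in nKO. They were not separated from somatostatin interneurons in any library (log2 ratios from -0.04 to 0.24, each interval spanning 0). Lamp5 interneurons exceeded them 3.21-fold in WT, 2.89-fold in tKO, 2.60-fold in aKO and 2.04-fold in nKO.

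CCK-type interneurons, the class that carries CB1 and was gated in part on its gene Cnr1, lay between these levels. Their Mgll level was 183 CPM in WT (143 to 231, from 38 nuclei), 172 in tKO, 176 in aKO and 126 in nKO. Lamp5 interneurons exceeded them 1.46-fold, 1.43-fold, 1.43-fold and 1.75-fold, and each interval lay above 1. CCK-type nuclei in turn exceeded Vip nuclei 1.94-fold, 2.47-fold, 2.07-fold and 1.68-fold, again with each interval above 1, and somatostatin nuclei 2.15-fold, 2.09-fold, 1.93-fold and 1.38-fold. The ratio to parvalbumin nuclei was 2.21, 2.02 and 1.82 in WT, tKO and aKO, and 1.17 in nKO, where the interval on the log2 scale was -0.17 to 0.60. The size of the CCK step rested on the gate: with Leiden clusters the WT log2 ratio of CCK-type over Vip nuclei was 0.37 in place of 0.96. The gap to Lamp5 nuclei was wider by cluster. Lamp5 clusters 27 and 33 held 340 and 251 CPM in WT and 284 and 280 in nKO, and CCK-type cluster 17 held 115 and 103.

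Equal depth left the Lamp5 class ahead of the other interneurons. After each nucleus was thinned to 1000 UMIs, an Mgll UMI was found in 20.1% of Lamp5 nuclei in WT (14.0% to 27.5%), 18.9% in tKO, 23.3% in aKO and 23.5% in nKO. The share in somatostatin nuclei was 10.2%, 7.26%, 6.81% and 8.02%, and in parvalbumin nuclei 6.02%, 9.46%, 8.57% and 11.7%. Every Lamp5 share lay above every share of these 2 classes, although in WT the Lamp5 interval reached below the upper end of the somatostatin interval (14.9%). CCK-type nuclei ranged from 7.27% in nKO (4 of 55) to 18.4% in WT (7.74% to 34.3%). Vip nuclei ranged from 4.00% in nKO (3 of 75) to 12.7% in WT (7.14% to 20.4%). The share was thus lowest in nKO in both, from few nuclei. Both classes had intervals that overlapped the Lamp5 interval in WT and aKO, and the CCK-type interval did so in tKO too. Without thinning, 78.5% of Lamp5 nuclei held an Mgll UMI in WT, 59.6% in tKO, 73.3% in aKO and 71.3% in nKO, at median depths of 9282, 5459, 6855 and 8473 UMIs.

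**Figure D2:**
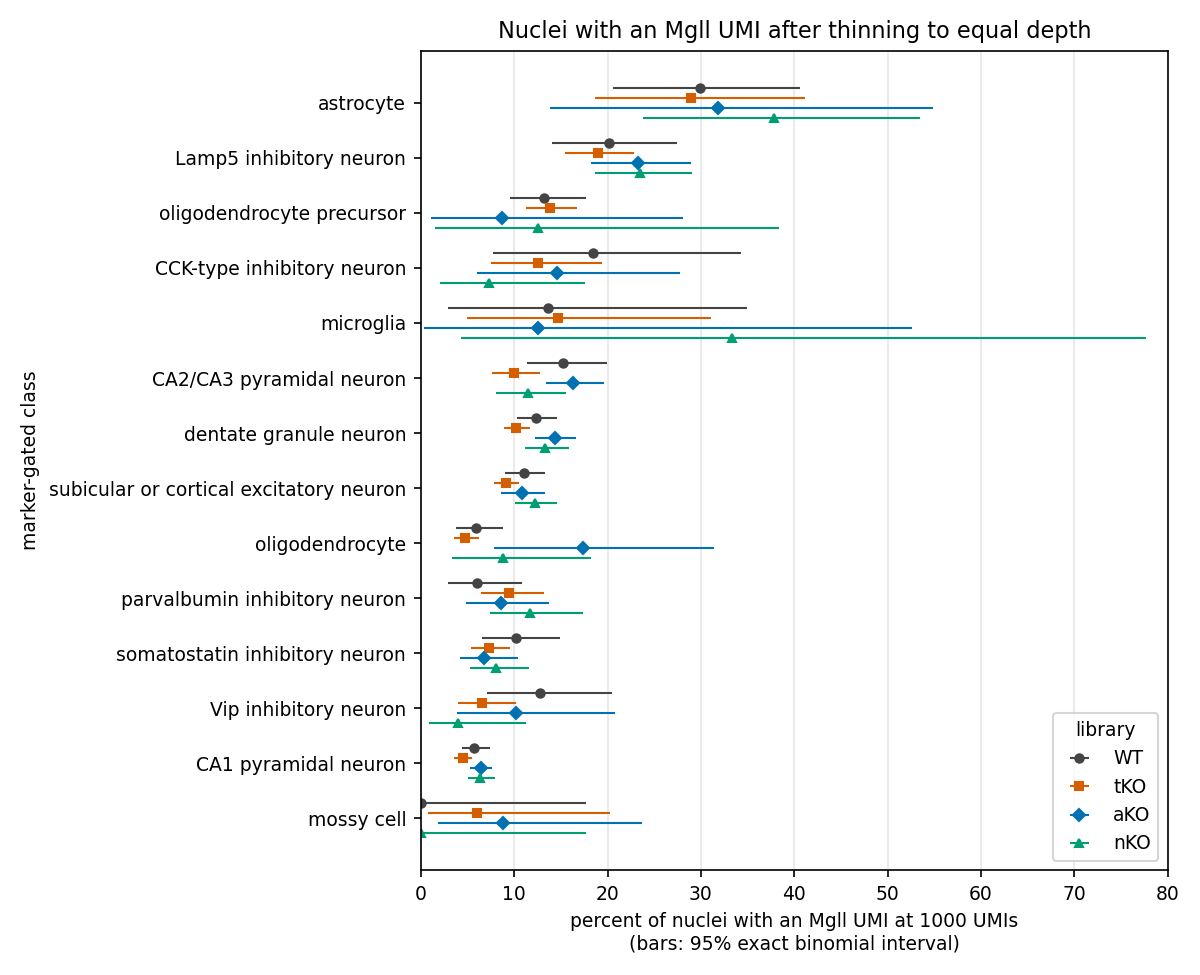
Percent of nuclei with at least 1 Mgll UMI after thinning to 1000 UMIs (x axis) in the same 14 classes (y axis), 1 point per library with its 95% exact binomial interval. Astrocytes (29.0% to 37.8%) and Lamp5 interneurons (18.9% to 23.5%) lie above the parvalbumin and somatostatin classes (6.02% to 11.7%), and the widest bars belong to microglia, which had 6 to 34 nuclei per library after thinning.

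Leiden clusters over all libraries split several classes by Mgll, which was itself left out of the clustering. Of 53 clusters, 36 could be named from the markers. Where a class had several with at least 10 nuclei in every library, the 2 clusters set side by side were those with its highest and lowest mean Mgll level, so that they differ is given by the choice. Lamp5 nuclei formed cluster 27, led by Hapln1, Sema3c and Vcan, and cluster 33, led by Egfr, Ndnf and Reln. Cluster 27 held the highest mean Mgll level of all 53 clusters, with 340.0 CPM in WT, 336 in tKO, 354 in aKO and 284 in nKO. Its mean of 328.5 CPM was close to the 320.1 of astrocyte cluster 35, which was higher in WT (372) and nKO (453), and astrocyte nuclei in both gate and cluster held 424 CPM over all libraries. Cluster 33 held 251, 258, 253 and 280.0 CPM, and cluster 27 exceeded it with intervals above 1 in WT, tKO and aKO (1.36-fold, 1.30-fold and 1.40-fold) and not in nKO (1.01-fold).

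Parvalbumin-type nuclei held a small high cluster beside a large low one. Cluster 41, led by Mctp2, Unc5b and Nxph2, had 199 nuclei and an Mgll level of 215 CPM in WT, 280.1 in tKO, 211 in aKO and 219 in nKO. Cluster 7, which carries Pvalb and Tac1 among its leading genes and had 1674 nuclei, held 73.6, 69.3, 90.5 and 87.3 CPM. The ratio between them was 2.92, 4.04, 2.33 and 2.51, with the interval above 1 in each library.

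Somatostatin nuclei differed less among themselves. Cluster 13, led by Sst and Crhbp, held 99.5, 111, 86.6 and 104 CPM in WT, tKO, aKO and nKO. Cluster 24, led by Npy and Sst, held 73.5, 67.0, 99.6 and 80.6. Cluster 13 was higher in WT, tKO and nKO with intervals above 1, and in aKO the order was the opposite with an interval that spanned 1.

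**Figure D3:**
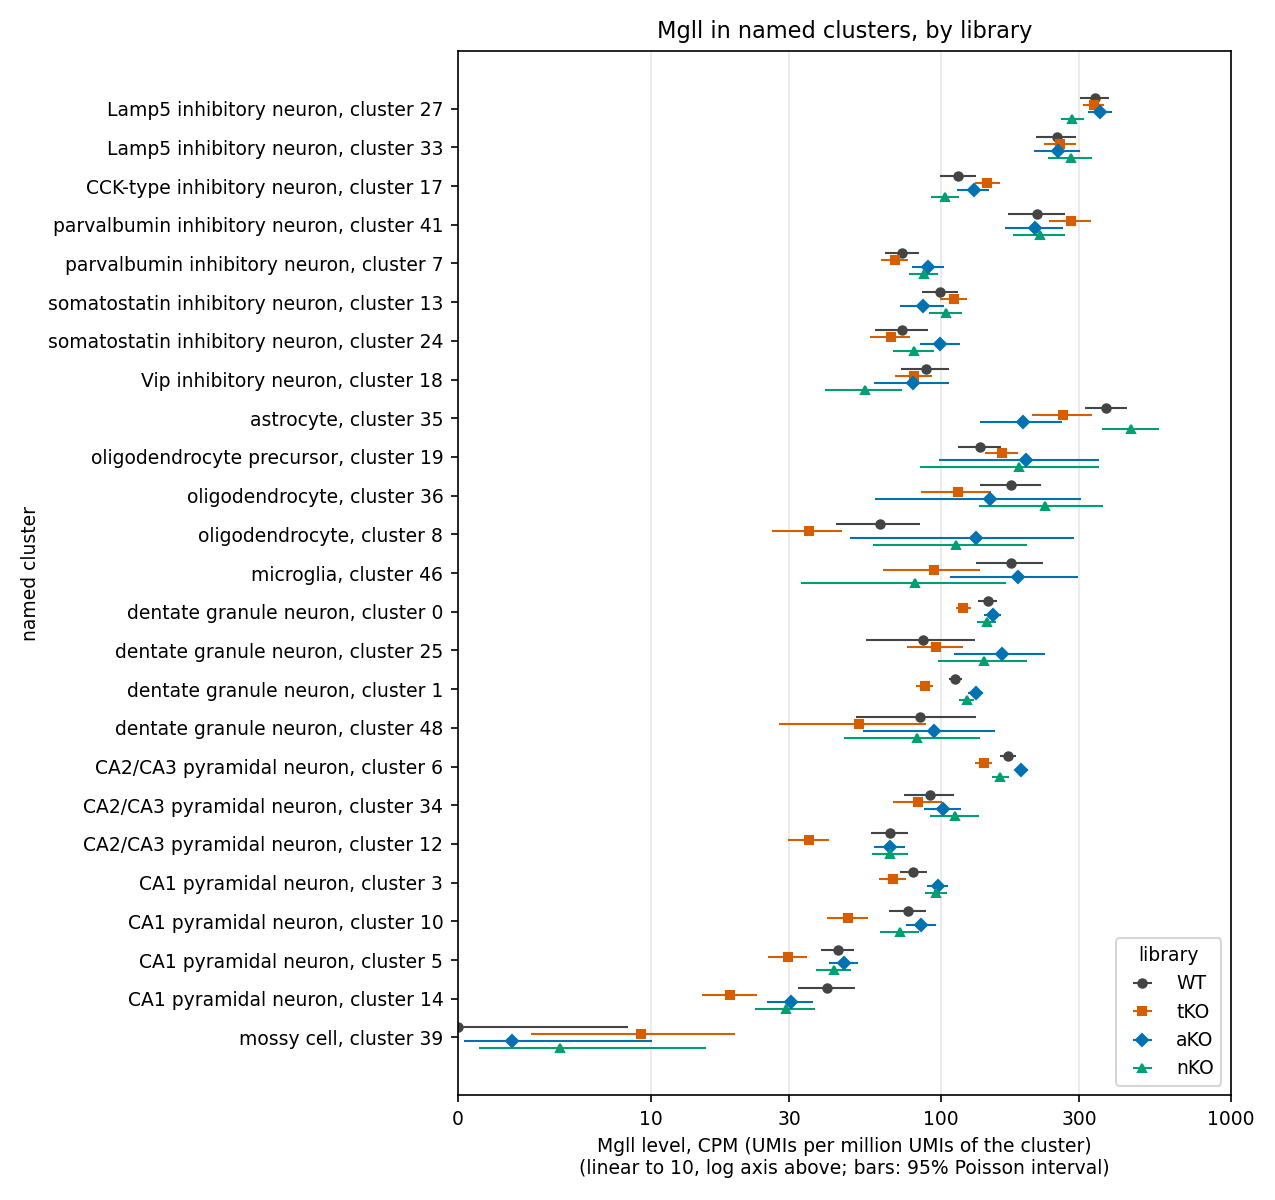
Mgll level (x axis, CPM of the cluster, linear to 10 and log above) in named clusters with at least 10 nuclei in every library (y axis, subicular or cortical clusters not drawn), 1 point per library with its 95% Poisson interval. Lamp5 cluster 27 (284 to 354) is at the top, parvalbumin cluster 41 (211 to 280.1) stands apart from parvalbumin cluster 7 (69.3 to 90.5), and mossy cell cluster 39 (0 to 9.47) is at the bottom.

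Of the glia, astrocytes stood highest. The gate gave 412 CPM in WT (337 to 499, from 105 Mgll UMIs in 91 nuclei), 347 in tKO (43 UMIs in 81 nuclei), 348 in aKO (21 UMIs in 24 nuclei) and 552 in nKO (65 UMIs in 48 nuclei). After thinning, 29.9%, 29.0%, 31.8% and 37.8% of astrocyte nuclei held an Mgll UMI. Astrocytes lay above excitatory neurons 4.02-fold, 4.37-fold, 3.37-fold and 5.28-fold and above oligodendrocytes 3.47-fold, 5.24-fold, 2.92-fold and 4.36-fold, with each interval above 1. The 10 astrocyte markers summed to between 9715 and 11330 CPM in these gates and none was at 0, while the 8 excitatory markers, of which 1 to 5 were at 0, summed to between 93.4 and 596 CPM, against 3055 to 3175 in excitatory neurons. The gate was set on both lists, so these sums follow in part from it and are no check of it.

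The astrocyte value in aKO depended on how astrocytes were chosen. Cluster 35, with Apoe and Gja1 among its leading genes, held 372 CPM of Mgll in WT, 263 in tKO, 192 in aKO and 453 in nKO. By cluster the log2 ratio to WT was -0.96 in aKO (-1.51 to -0.44) and -0.50 in tKO (-0.93 to -0.09), whereas by gate both were -0.25 with intervals that spanned 0. The cluster held nuclei outside the gate, and since the gate uses both marker lists, being outside it selects in part for excitatory markers. In aKO these were 11 nuclei with a median of 13640 UMIs, in which excitatory markers summed to 2131 and astrocyte markers to 1858 CPM and Mgll stood at 126 (74.5 to 199). The cluster nuclei outside the gate in WT, tKO and nKO (21, 35 and 8) also carried excitatory markers, at 1554, 1382 and 1296 CPM, and held 304, 194 and 253 CPM of Mgll. The 80 tKO nuclei in both the gate and the cluster held 353 CPM. The 24 aKO nuclei in both the gate and the cluster held 348 CPM (215 to 531), against 412 in WT. The part that these neuronal transcripts had in the lower cluster value was not tested.

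By gate, astrocytes exceeded oligodendrocyte precursors 2.99-fold, 2.19-fold, 1.85-fold and 2.94-fold in WT, tKO, aKO and nKO, with an interval that spanned 1 in aKO. The precursors, dividing cells marked by Pdgfra and Cspg4, held 138 CPM in WT (148 Mgll UMIs), 159 in tKO (239), 188 in aKO (18) and 188 in nKO (8). Myelinating oligodendrocytes held 119, 66.3, 119 and 127 CPM from 165, 149, 30 and 44 Mgll UMIs. The precursor level was 2.40-fold the oligodendrocyte level in tKO, with an interval above 1, and 1.16-fold, 1.58-fold and 1.48-fold in WT, aKO and nKO, with intervals that spanned 1. After thinning, 13.2% of WT precursors and 5.93% of WT oligodendrocytes held an Mgll UMI. The shares were 13.8% and 4.73% in tKO and 12.5% and 8.82% in nKO. In aKO the order was the opposite, with 8.70% of precursors (2 of 23) and 17.4% of oligodendrocytes (8 of 46).

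Oligodendrocytes formed 2 named clusters. Cluster 36, led by the myelin genes Mal, Mobp and Opalin, held 175 CPM of Mgll in WT, 114 in tKO, 147 in aKO and 229 in nKO. Cluster 8, with Prr5l and Trf among its leading genes, held 61.5, 34.9, 132 and 113. Cluster 36 was higher 2.84-fold in WT and 3.27-fold in tKO with intervals above 1, and 1.11-fold and 2.03-fold in aKO and nKO with intervals that spanned 1. Cluster 44, which stayed unnamed and was singled out after its values were seen, was led by genes that include Bcas1, Tcf7l2 and Enpp6, known from newly formed oligodendrocytes. Its 171 nuclei held 289, 297, 247 and 275 CPM in WT, tKO, aKO and nKO, the third highest mean of the 53 clusters. This was above astrocyte cluster 35 in tKO and aKO (263 and 192 CPM) and below the gated astrocytes in both (347 and 348).

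Microglia, the resident macrophages of the brain, gave few Mgll UMIs. Their level was 155 CPM in WT (98.1 to 232, from 23 UMIs), 128 in tKO (19 UMIs), 206 in aKO (9 UMIs) and 103 in nKO (3 UMIs, 21.2 to 301). These levels could not be told from those of CCK-type or CA2/CA3 neurons. Microglia cluster 46 held 174, 94.6, 185 and 81.7 CPM from 58, 28, 17 and 7 Mgll UMIs. Excitatory markers summed to 1594, 1397, 1303 and 2882 CPM in the microglia gates, more than in the astrocyte gates, and their part in the Mgll level was not tested.

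Mossy cells, the glutamatergic neurons of the dentate hilus, held the least Mgll of the ranked classes. The gate gave 41.4 CPM in WT (12 Mgll UMIs in 19 nuclei), 28.9 in tKO (10 in 33), 39.9 in aKO (17 in 34) and 18.9 in nKO (5 in 19). The log2 ratio to all excitatory neurons was -1.31, -1.46, -1.37 and -2.47, and that to dentate granule neurons, their main input, was -1.66, -1.82, -1.83 and -2.76, with every interval below 0. After thinning, 0 of 19 mossy nuclei held an Mgll UMI in WT and 0 of 19 in nKO, which allows a share of up to 15.8% by 3 counts and 17.6% by the exact interval, and the shares in tKO and aKO were 6.06% and 8.82%.

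The nuclei of the mossy gate fell into a part with little Mgll and a part with more. The gate placed 65.7% of its nuclei in cluster 39, the cluster named mossy cell, and these 69 nuclei of all libraries held 2 Mgll UMIs, or 2.17 CPM (0.26 to 7.84). The other 36 nuclei lay in other clusters and held 42 Mgll UMIs, or 104 CPM (74.9 to 140.5), close to the 95.6 of excitatory neurons. Mossy markers summed to 736 CPM inside the cluster and 428 outside it, dentate granule markers to 31.5 and 141, and CA2/CA3 markers to 1832 and 1462. The gate used these lists and the cluster was named from the mossy list. The sums thus follow in part from how the sets were made and are no check of them. The whole of cluster 39 held 0 Mgll UMIs in 28 WT nuclei, 7 in 75 tKO nuclei, 2 in 59 aKO nuclei and 3 in 40 nKO nuclei, or 4.90 CPM over all 202 (2.53 to 8.57), at a median depth of 11240 UMIs. No nucleus of this cluster held an Mgll UMI after thinning, which allows a share of up to 1.49% by 3 counts and 1.81% by the exact interval. This was the lowest mean level of the 53 clusters.

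Cajal-Retzius cells, the reelin-secreting neurons of the marginal zone, gave different levels by cluster and by gate. Cluster 38, with Reln, Ndnf and Trp73 among its leading genes, held 4 Mgll UMIs in 221 nuclei, or 9.94 CPM (2.71 to 25.5), and 0.490% of its nuclei held an Mgll UMI after thinning. Its nuclei came mostly from tKO (173) and WT (44), at a median depth of 1659 UMIs. The gate found 22 nuclei, of which 9.09% lay in this cluster, and gave 119 CPM in WT (5 Mgll UMIs in 3 nuclei), 49.2 in tKO (8 in 18, 21.2 to 96.9) and 141 in aKO (2 in 1), at a median depth of 9692 UMIs. Cluster 52, which stayed unnamed and is also led by Ndnf, Trp73, Ebf3 and Reln, held 41.0 CPM in its 11 tKO nuclei (11.2 to 104.9, from 4 UMIs).

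Pyramidal and granule neurons lay between these ends, and CA1 neurons were the lowest of the large excitatory classes. CA1 neurons held 64.0, 45.8, 70.6 and 73.3 CPM in WT, tKO, aKO and nKO, and CA2/CA3 neurons, the source of the Schaffer collaterals to CA1, held 151, 123, 164 and 142. CA2/CA3 neurons lay 2.35-fold, 2.69-fold, 2.32-fold and 1.93-fold above CA1 neurons and dentate granule neurons 2.05-fold, 2.22-fold, 2.01-fold and 1.75-fold, with every interval above 1. The classes were not uniform. Among clusters named CA1 the mean level over the libraries ran from 85.5 CPM in cluster 3 to 29.7 in cluster 14. Cluster 14 took that name from 4 markers and was led by Dcn, Gm6260 and Fras1. Among CA2/CA3 clusters the mean ran from 165 in cluster 6, led by Nectin3, to 58.8 in cluster 12, led by Vgll3 and Col6a1. Subicular or cortical cluster 30 lay 4.65-fold to 5.62-fold above cluster 29 in the 4 libraries, the widest step of the 8 pairs of same-named clusters compared, each chosen as the highest and lowest of its class.

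Each knockout-labelled library was then set against the same WT library, so the comparisons share their control. In tKO the interval of the log2 ratio lay below 0 in 5 of the 14 classes, above 0 in none and spanned 0 in 9. The 5 were oligodendrocytes (-0.84, -1.17 to -0.51), CA1 neurons (-0.48), dentate granule neurons (-0.37), subicular or cortical neurons (-0.35) and CA2/CA3 neurons (-0.29). At 1000 UMIs per nucleus, where Mgll UMIs are lost to a random draw and no interval is given, they were -0.30, -0.56, -0.27, -0.36 and -0.68. Among clusters named CA1 the tKO ratio ran from -0.24 in cluster 3 to -1.115 in cluster 14. In CA2/CA3 clusters 6 and 12 it was -0.28 and -0.92. After thinning the order in cluster 14 was the opposite, with an Mgll UMI in 1.52% of WT nuclei (2 of 132) and 2.07% of tKO nuclei (10 of 484), while in cluster 12 it was 6.42% and 2.89%. The interneuron subtypes gave -0.11 for Lamp5, -0.09 for CCK-type, 0.04 for parvalbumin, -0.05 for somatostatin and -0.43 for Vip, each with an interval that spanned 0. At 1000 UMIs per nucleus these ratios were -0.26, -0.24, 0.44, -0.50 and -0.95, also without an interval. Excitatory classes and interneurons were thus not set apart at equal depth. Of the classes left out of the order, immature neurons lay below WT in tKO (-1.23, -2.46 to -0.11, from 10 Mgll UMIs in tKO and 24 in WT). At 1000 UMIs per nucleus this ratio was -0.31, with an Mgll UMI in 2 nuclei of each library. The immature gate marked its class weakly, with 68 of its 82 nuclei at the lowest number of markers. No cluster bore that name, and 42.7% of these 82 nuclei lay in clusters of another name. The thalamic gate gave 132, 76.4, 24.4 and 19.6 CPM from 33, 68, 5 and 1 Mgll UMIs in WT, tKO, aKO and nKO, but its nuclei were unlike between libraries. Plcb4 stood at 84.2, 622, 761 and 19.6 CPM in them, and of the 167 nuclei of the thalamic cluster 45 only 1 came from WT and 0 from nKO, so no ratio is given. With clusters in place of gates the interval of the tKO ratio lay below 0 in 14 of 30 clusters, above 0 in 1 and spanned 0 in 15. The 1 above was the CCK-type cluster 17, at 0.33 (0.08 to 0.59).

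The oligodendrocyte value in tKO was smaller in size after thinning. The median depth of oligodendrocyte nuclei was 1224 UMIs in tKO and 2024 to 2256 in the other libraries, and thinning to 1000 UMIs left out 381 of the 1417 tKO nuclei and changed the log2 ratio from -0.84 to -0.30. The thinned ratio has no interval and rests on 49 tKO and 23 WT nuclei with an Mgll UMI. Excitatory markers summed to 252 CPM in tKO oligodendrocytes and to 736, 1564 and 945 in those of WT, aKO and nKO. The part of either in the lower Mgll value was not tested.

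In aKO the interval lay above 0 in 1 class (CA1 neurons, 0.14) and below 0 in 1 (subicular or cortical neurons, -0.20). At 1000 UMIs per nucleus these ratios were 0.01 and -0.09. Of the 6 subicular or cortical clusters, 3 were higher in aKO than in WT (clusters 4, 23 and 30, with the interval above 0 in cluster 23, at 0.42) and 3 were lower with intervals that spanned 0, and cluster 29, the lowest in Mgll, held 156 aKO nuclei and 87 WT nuclei. With clusters in place of gates the interval of the aKO ratio lay above 0 in 7 of 30 clusters, below 0 in 1 and spanned 0 in 22. The 7 included CA1 cluster 3 (0.28) and CA2/CA3 cluster 6 (0.15), and the 1 below was the astrocyte cluster 35. The astrocyte ratio by gate was -0.25 (-0.996 to 0.44). At this depth no difference was detectable, and the cluster value of -0.96 lies within that interval. The interneuron subtypes ran from -0.14 in Vip to 0.23 in parvalbumin, and every interval spanned 0.

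In nKO the ratios of interneuron subtypes lay on both sides of 0. The log2 ratio was 0.39 in parvalbumin (0.07 to 0.71) and 0.20 in CA1 neurons, and -0.27 in Lamp5 (-0.46 to -0.07) and -0.53 in CCK-type interneurons (-1.01 to -0.05). At 1000 UMIs per nucleus these ratios were 0.95 in parvalbumin, 0.01 in CA1, -0.04 in Lamp5 and -1.34 in CCK-type neurons, and of the Lamp5 clusters 27 lay below WT (-0.26, -0.47 to -0.04) while 33 did not. Parvalbumin clusters 7 and 41 gave 0.25 (-0.01 to 0.51) and 0.03 (-0.42 to 0.48), so both intervals spanned 0. Of the 4 CA1 clusters, cluster 3 lay above WT (0.26, 0.06 to 0.45), and clusters 5, 10 and 14 had ratios of -0.04, -0.09 and -0.47 with intervals that spanned 0. The cluster of CCK-type nuclei held 103 CPM in nKO and 115 in WT, with an interval of the ratio that spanned 1. With clusters in place of gates the interval of the nKO ratio lay above 0 in 2 of 30 clusters, below 0 in 2 and spanned 0 in 26. Those below were Lamp5 cluster 27 and Vip cluster 18 (-0.69, -1.23 to -0.17). By gate the Vip ratio in nKO was -0.32 (-0.91 to 0.25). Of the 14 classes, 10 spanned 0 in nKO, among them astrocytes (0.42, -0.05 to 0.88), dentate granule neurons (-0.04) and CA2/CA3 neurons (-0.09). At 1000 UMIs per nucleus the CA2/CA3 ratio was -0.59 in nKO. Ratios whose interval spanned 0 took the other sign on thinning in several classes. In aKO these were astrocytes (0.12), oligodendrocyte precursors (-0.72), CA2/CA3 neurons (-0.04) and somatostatin interneurons (-0.63), in nKO precursors (-0.19), microglia (1.29), dentate granule neurons (0.11), subicular or cortical neurons (0.19) and somatostatin interneurons (-0.42), and in tKO microglia (0.37). Thinned ratios have no interval here and rest on the few nuclei that kept an Mgll UMI. Among microglia these were 2 of 6 in nKO and 3 of 22 in WT, and among precursors 2 of 23 in aKO. Among CCK-type nuclei they were 4 of 55 in nKO and 7 of 38 in WT. Such changes of sign or size can lie within counting error and were not tested.

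**Figure D4:**
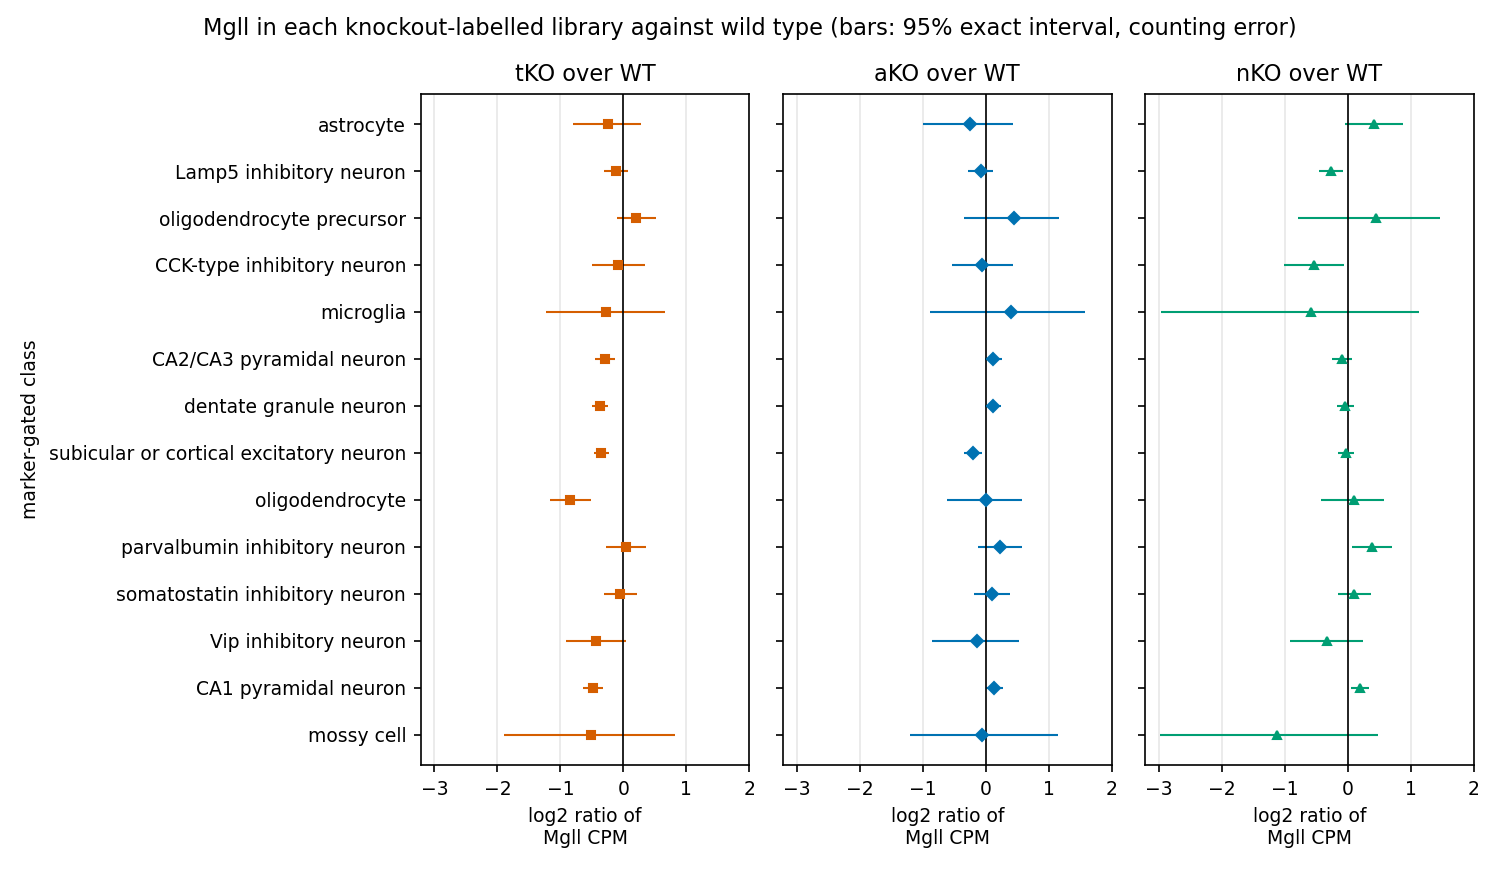
Log2 ratio of the Mgll level (CPM) of tKO, aKO and nKO to WT (x axis, 1 panel per library) in 14 marker-gated classes (y axis), with 95% exact intervals for counting error. In tKO the 4 large excitatory classes and oligodendrocytes lie left of 0 with their intervals, while interneuron intervals span 0, and in nKO parvalbumin (0.39) and CCK-type interneurons (-0.53) lie on opposite sides. By cluster (not drawn) the nKO intervals of parvalbumin clusters 7 and 41 and of CCK-type cluster 17 span 0.

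None of these Mgll differences reached 2-fold in the classes tested across genes. In excitatory neurons 1.94% of 16610 genes were at least 2-fold from WT in tKO, 1.31% in aKO and 0.927% in nKO, and 18.2% of genes lay at least as far from WT as Mgll (-0.37) in tKO. In inhibitory neurons the shares past 2-fold were 2.65%, 1.79% and 1.48%, and in Lamp5 interneurons 2.80%, 2.48% and 3.24%. In astrocytes they were 5.27%, 9.37% and 6.93% of 1025 genes, in oligodendrocytes 9.75%, 12% and 7.10%, and in oligodendrocyte precursors 1.46%, 15.6% and 18.7%. The Mgll ratio of -0.84 in tKO oligodendrocytes was matched or passed by 11.4% of the genes tested there.

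Other genes of the endocannabinoid pathway were read from a list of 20, which includes Mgll, the 2-AG synthases Dagla and Daglb, the hydrolases Abhd6, Abhd12 and Faah, the receptor Cnr1 and the fatty acid carriers Fabp5 and Fabp7. In excitatory neurons 0 of the 17 members tested passed 2-fold in any of the 3 comparisons. In inhibitory neurons 1 of 15 passed in nKO and 0 in tKO and aKO: Fabp5 held 24.5 CPM in WT and 11.6 in nKO, a log2 ratio of -1.08, with -0.90 in tKO and -0.70 in aKO. In Lamp5 interneurons 0 of 13 passed and in astrocytes 0 of 3. The median log2 ratio of the list lay between -0.04 and 0.03 in excitatory and inhibitory neurons, and that of all genes tested between -0.06 and -0.02.

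The oligodendrocyte lineage was added to this count after the values were seen. In oligodendrocytes, where 9.75% of all genes passed 2-fold in tKO and 12% in aKO, 2 of 12 list members were lower in tKO, namely Dagla (43.2 CPM in WT, 11.6 in tKO) and Plcb1 (627 and 298), and Daglb was higher in aKO (24.5 and 51.6, the latter from 13 UMIs). Excitatory markers in the oligodendrocyte gate were likewise lower in tKO (252 CPM) and higher in aKO (1564) than in WT (736), and Dagla and Plcb1 held 77.4 and 1475 CPM in WT excitatory neurons. Their part in these values was not tested. In precursors 1 of 8 members passed in tKO (1.46% of all genes), 1 in aKO (15.6%) and 2 in nKO (18.7%). Fabp7 was lower in tKO (94.0 CPM in WT, 46.6 in tKO) and in aKO (20.9, from 2 UMIs), and Cnrip1 and Gde1 were higher in nKO from 12 and 5 UMIs. Excitatory markers in the precursor gate summed to 435, 497, 1256 and 563 CPM in WT, tKO, aKO and nKO.

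Across the 11 classes with at least 20 nuclei in every library, the levels of list members were set beside that of Mgll. Pearson's r of the log2 levels, each class taken as the mean of the same 4 libraries, was 0.77 for Fabp7, 0.72 for Naaa, a lysosomal amidase for N-acylethanolamines, and 0.67 for Fabp5, all 3 with their highest mean level of these classes in astrocytes. It was 0.40 for Abhd6 and 0.28 for Abhd12, the other 2-AG hydrolases, and -0.20 for Cnr1, -0.26 for Dagla, -0.33 for Daglb and -0.52 for Faah, the hydrolase of anandamide. Faah held 125 CPM in CA1 neurons and 41.8 in Lamp5 interneurons as means of the libraries, whereas Mgll held 63.4 and 246. The r of Fabp7 (0.772) was level with that of the hundredth gene of the ranking given next (0.771). Fabp7 had only 22, 5, 1 and 1 UMIs in astrocytes of WT, tKO, aKO and nKO. Its mean was higher in oligodendrocyte precursors, which are not among the 11 classes, than in astrocytes (58.0 and 37.9 CPM).

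The 10 genes most like Mgll among the 9658 compared were Mmp14 (0.88), Dio2 (0.87), Atg7 (0.86), Gdpd2 (0.86), Gm26512 (0.85), Zic5 (0.85), Atn1 (0.85), Thrsp (0.85), Sfxn2 (0.85) and Katna1 (0.85). Each of the 10 had its highest mean level of the 11 classes in astrocytes, where Mmp14, a membrane metalloproteinase, held 99.96 CPM and Dio2, the deiodinase that activates thyroid hormone, held 90.2. The ranking was shallow, since the hundredth gene still gave an r of 0.77. Leaving out 1 library at a time kept 4 or 5 of the 10, and 0 of them were among the 10 most like Mgll over the 5 interneuron subtypes alone. These values describe few classes that share libraries and depth.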

How the data were processed

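The authors deposited raw UMI counts per gene and nucleus, made with Cell Ranger ARC 2.0.0 on mm10 per the submitters' processing notes; per the labels' protocols nuclear RNA was captured with a 10x kit that also reads chromatin, and no source used here names the annotation or the use of strand. Gm26588, antisense to the start of Mgll, held 0.577 to 0.802 UMIs per 100 Mgll UMIs. Libraries held 81623644 to 193307038 UMIs. As deposited, no barcode held fewer than 400 or more than 5998 detected genes, so nuclei outside this range were not available here.

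Here nuclei were kept from 500 detected genes upward and up to 5% mitochondrial UMIs, doublets called by Scrublet in scanpy 1.11.5 (1.73% to 22.6% of a library) were removed, and 51546 nuclei remained. Nuclei were gated on 25 marker lists, and 11974 nuclei stayed without a lineage. A gate needed at least 3 markers for a lineage, 2 for an interneuron subtype and 3 for an excitatory class. The score of the next-best list was at most 50% or 67% of the best. This score weighted each detected marker by minus the log of the share of nuclei that held it. The gate rule was set after its match to clusters, and Mgll values, were seen. Leiden clusters (leidenalg 0.10.2, resolution 2, 2000 variable genes without Mgll, 30 components, 15 neighbours) were named where at least 3 markers were found in 10% of nuclei at 2-fold above the rest. Nuclei were thinned to 1000 UMIs without replacement for shares.

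Since each genotype has 1 library, nothing was tested and no p-value is given. Intervals are exact at 95% (Poisson for levels, conditional binomial for ratios, Clopper-Pearson for shares), and beside a share of 0 stands the limit set by 3 counts. For log2 ratios across genes, those with at least 100 UMIs in the class were used, with a pseudocount of 1 count. Named genes were Mgll, the 20 listed endocannabinoid genes and the 10 genes most like Mgll by Pearson's r, among genes with at least 20 CPM in 1 class and without marker genes. Members, lists and tests were chosen with earlier results of these data known. The counting steps were tested on simulated data. Alternatives tried were clusters, stricter gates, doublets kept, 1000 detected genes, male nuclei, means over nuclei, another denominator, other thinning depths, UMI sums and folds, and leaving out libraries.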

Additional observations from a re-analysis of the deposited data

Results flagged for a closer look

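The ratio of Mgll to wild type took opposite signs between cell classes of the same library in 6 values of the 14 ranked classes, each with an interval that excludes 0. The interval spanned 0 in 12 of the 14 classes in aKO and in 10 in nKO. The share of all genes whose interval excludes 0 in these classes is not given, so the 6 values cannot be compared with it. In aKO the log2 ratio was 0.14 (0.01 to 0.28) in CA1 neurons and -0.20 (-0.34 to -0.05) in subicular or cortical neurons. In nKO it was 0.20 (0.06 to 0.34) in CA1 neurons and 0.39 (0.07 to 0.71) in parvalbumin interneurons, against -0.27 (-0.46 to -0.07) in Lamp5 and -0.53 (-1.01 to -0.05) in CCK-type interneurons. At 1000 UMIs per nucleus the CA1 ratios were 0.01 in aKO and 0.01 in nKO, the subicular or cortical ratio in aKO was -0.09, and in nKO the ratios of parvalbumin, Lamp5 and CCK-type interneurons were 0.95, -0.04 and -1.34. The CA1 values and the Lamp5 value thus came close to 0 on thinning, and the subicular or cortical value came closer to it. The thinned ratios have no interval, and these changes can lie within counting error. Within classes the clusters did not all share the sign: in aKO subicular or cortical clusters 4, 23 and 30 were higher than in WT (0.06, 0.42 and 0.16) and the other 3 lower, and in nKO CA1 cluster 3 was higher (0.26) and clusters 5, 10 and 14 lower (-0.04, -0.09 and -0.47). In nKO parvalbumin clusters 7 and 41 (0.25 and 0.03) and CCK-type cluster 17 (-0.15) had intervals that spanned 0. The differences between classes were not tested, since each class of a genotype is 1 library, and intervals cover counting error only. Groups of 1 library have no test for a sample that stands apart.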

How the results depend on the processing

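Under the alternatives 242 values stayed within the counting interval of the main value or within 1.5 times the main count, 42 moved and 1 reversed. With nuclei thinned to 1000 UMIs the log2 ratio of aKO to WT in inhibitory neurons reversed to -0.10 (main 0.13). Thinning also moved Lamp5 over somatostatin in WT to 1.31, oligodendrocyte precursors over oligodendrocytes in WT to 1.21, inhibitory neurons in tKO to -0.22, Lamp5 in nKO to -0.036, oligodendrocytes to -0.30, 1.49 and 0.73 in tKO, aKO and nKO, precursors in aKO to -0.72 and mossy cells over excitatory neurons to -1.05 (main -1.53 over all libraries). Male nuclei alone gave 2.33 for astrocytes over excitatory neurons in WT, -0.44 and -0.052 for excitatory neurons in tKO and nKO, and -0.33 for Lamp5 in tKO. One marker more in each gate gave -4.28 for mossy over excitatory in WT, -2.63 over all libraries, and 0.13 for Lamp5 in aKO. Clusters gave 0.37 for CCK-type over Vip in WT, 0.60 for oligodendrocytes in nKO and -4.35 for mossy cells; mossy nuclei in both gate and cluster, an alternative chosen after seeing the data, gave -5.46. At least 1000 detected genes gave -0.43 for oligodendrocytes in tKO, and the mean over nuclei 0.86 for precursors over oligodendrocytes in WT. Some alternatives left no Mgll UMI in WT mossy nuclei and gave no ratio. The causes were not tested.

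Thinning to 500 and 2000 UMIs set the WT shares at 12.7% and 37.2% in Lamp5, 19.8% and 54.3% in astrocytes and 4.59% and 18.0% in excitatory neurons. At 1.5-fold the endocannabinoid count was 1 in tKO and 1 in aKO for excitatory and for inhibitory neurons alike, and 1 marker more gave 1 in excitatory neurons of aKO. Clusters, and male nuclei alone, gave 0 in inhibitory neurons of nKO. A UMI sum of 20 gave 1, 1 and 3 in astrocytes of tKO, aKO and nKO. The share of all genes past the fold at these looser settings is not given, so the counts cannot be compared with it. Leaving out 1 library kept 4 to 5 of the 10 genes most like Mgll. No paired analysis was possible because each genotype has 1 library. Depth limits astrocytes (21 Mgll UMIs in aKO), microglia (3 in nKO), precursors (8 in nKO) and mossy cells (5 in nKO).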

Other observations

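Nuclei that passed no lineage gate held 106 CPM of Mgll in WT, 83.3 in tKO, 109 in aKO and 113 in nKO, and barcodes removed as doublets held 114, 83.8, 121 and 120. Unnamed cluster 21, led by C1qtnf7, Dcn and Fign, held the lowest mean level of the unnamed clusters, 17.2 CPM over its libraries, with 11.4 in the lowest and 24.3 in the highest. Unnamed cluster 47, present with at least 10 nuclei in 3 libraries, held between 196 and 202 CPM.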
